A study of Rattus norvegicus with 9 samples.

Results

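Voltage-gated sodium channels are described here through 8 of their subunit genes, measured in the spinal cord of rats after contusion injury with and without high-frequency spinal cord stimulation. The 8 genes were taken by symbol from the 30507 rows of the count table. They are 5 pore-forming alpha subunits (Scn1a, Scn2a, Scn3a, Scn8a and Scn9a) and 3 accessory beta subunits (Scn2b, Scn3b and Scn4b). Each symbol stood on 1 row, and all 8 genes had counts in all 9 libraries and passed the filter on low counts in each comparison.

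The tissue was the T9-T11 spinal cord of female wild-type Sprague-Dawley rats, 8 weeks old when obtained, and was taken as whole tissue at 35 days post-injury (dpi). The Sham group (n = 3 libraries) is labelled untreated, and the study's methods describe Sham rats as having had a laminectomy. The SCI group (n = 3) had a T10 contusion. The SCI + SCS group (n = 3) had the same contusion and an epidural electrode, through which 10 kHz pulses of 30 µs and 0.12 mA were given for 2 h daily from 1 dpi. Per the study's methods, implanted but unstimulated rats were not sequenced, so the effect of stimulation and that of the implant cannot be told apart. The labels do not divide the libraries into batches, which does not exclude batch differences. They also do not say that replicates came from separate rats, and p-values measure only the spread between these libraries.

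Sodium channels open when the membrane is depolarized and carry the inward current that starts and propagates the action potential. The alpha subunit forms the pore and the voltage sensors. Beta subunits are single-pass membrane proteins that alter channel gating and surface density and bind other membrane and matrix proteins. In neurons the channels are concentrated at the axon initial segment and at nodes of Ranvier, where Scn8a encodes the main channel of the mature axon (Nav1.6). Scn1a (Nav1.1) is known from fast-firing neurons, Scn2a (Nav1.2) from unmyelinated and developing axons, Scn3a (Nav1.3) from embryonic neurons, and Scn9a (Nav1.7) from peripheral sensory and sympathetic neurons.

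On the positions of the count table (genome build mRatBN7.2 per the submitters' processing notes), 4 of the alpha subunit genes lay in a cluster on chromosome 3. Scn3a was at 50148139-50258119 on the minus strand, Scn2a at 50302877-50437214 on the plus strand, Scn1a at 50952791-51071699 on the minus strand and Scn9a at 51145146-51293516 on the minus strand. Scn8a lay apart, on chromosome 7 at 131982480-132151292 on the plus strand. The beta subunit genes were all on the plus strand of chromosome 8, with Scn3b at 40630455-40652868, Scn2b at 45425629-45437765 and Scn4b at 45446215-45462292. An unnamed gene on the opposite strand (ENSRNOG00000066633) shared 58748 bases with Scn9a and held 5 to 114 counts per library. Whether the counting used strand is not given in the sources used here, so reads of Scn9a and of this gene could be mixed.

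RefSeq promoter windows of 250 bases before the gene start were held for 6 of the 8 genes on another build, GRCr8, and all bases printed are from that build. The windows of Scn8a and Scn2b are printed because these genes had the largest and the smallest fold change after SCI, and that of Scn2a because it belongs to the alpha cluster. Capitals mark the GC box letters GGGCGG.
Scn8a, chr7:133860977-133861226, plus strand: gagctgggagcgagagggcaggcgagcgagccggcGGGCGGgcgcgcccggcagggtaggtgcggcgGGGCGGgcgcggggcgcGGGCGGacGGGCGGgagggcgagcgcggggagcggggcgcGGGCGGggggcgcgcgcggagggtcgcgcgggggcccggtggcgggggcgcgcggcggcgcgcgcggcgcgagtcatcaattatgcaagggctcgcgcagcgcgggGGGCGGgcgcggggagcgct
Scn2b, chr8:54322133-54322382, plus strand: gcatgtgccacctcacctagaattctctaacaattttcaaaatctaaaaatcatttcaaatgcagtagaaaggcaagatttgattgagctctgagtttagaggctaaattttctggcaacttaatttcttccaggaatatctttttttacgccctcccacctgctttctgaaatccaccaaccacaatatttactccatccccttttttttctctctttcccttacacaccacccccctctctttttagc
Scn2a, chr3:70710706-70710955, plus strand: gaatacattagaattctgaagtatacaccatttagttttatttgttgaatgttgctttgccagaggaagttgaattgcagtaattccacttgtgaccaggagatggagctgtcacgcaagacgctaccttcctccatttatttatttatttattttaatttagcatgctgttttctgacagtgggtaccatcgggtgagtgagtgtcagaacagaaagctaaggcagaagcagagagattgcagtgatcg

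The Scn8a window had a GC content of 86.0%, which was at the 99.9th percentile of 33469 rat windows of this length, against a median of 51.2%. It held 6 GC boxes, and 30.5% of all windows held at least 1 on either strand. The other windows ran from 38.8% GC in Scn2b, 39.6% in Scn2a and 41.6% in Scn3a to 52.4% in Scn9a and 71.6% in Scn4b, with no GC box. The E-box letters CANNTG were found in 4 of the 6 windows and in 65.5% of all windows. Neither TATAAA nor CCAAT was found in the 6 windows on either strand. These matches describe the letters of the windows only.

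Libraries held 62844376 to 88358570 counts, and a level of 3 counts was 0.034 to 0.0477 CPM (counts scaled to the library total) before normalization. The other CPM values given are after TMM normalization, which brings libraries to a common level. Counts of genes usually expressed in sensory ganglion neurons set 1 library apart. In Sham replicate 2, Scn10a had 4873 counts, against 10 and 74 in the other Sham libraries and 7 to 24 in the SCI libraries. Scn11a had 4090 counts there, against 12 and 62, and P2rx3, an ATP-gated channel of nociceptors, had 5078 against 95 and 192. SCI + SCS replicate 3 held 215 counts of Scn10a, against 7 and 50 in the other SCI + SCS libraries. The summed level of the 8 sensory ganglion genes listed was 149 to 670 CPM in the Sham group, 40.7 to 122 CPM in the SCI group and 102 to 166 CPM in the SCI + SCS group. Of these genes Mrgprd was at 0 in 5 libraries, Isl1 in 4 and Scn11a in 1. The sums did not follow Scn10a and Scn11a, since Sham replicate 1 summed to 401 CPM with these at 0.157 and 0.189 CPM. Prph had the highest mean of the listed genes in each group, at 266 CPM in Sham, 58.1 CPM in SCI and 86.2 CPM in SCI + SCS. Whether the sums reflect ganglion tissue was not tested. Skeletal muscle genes, 8 of which were in the table, summed to 3578 CPM in SCI replicate 1 and 1108 CPM in SCI replicate 3, against 9.86 to 51.6 CPM in the other 7 libraries.

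**Figure D1:**
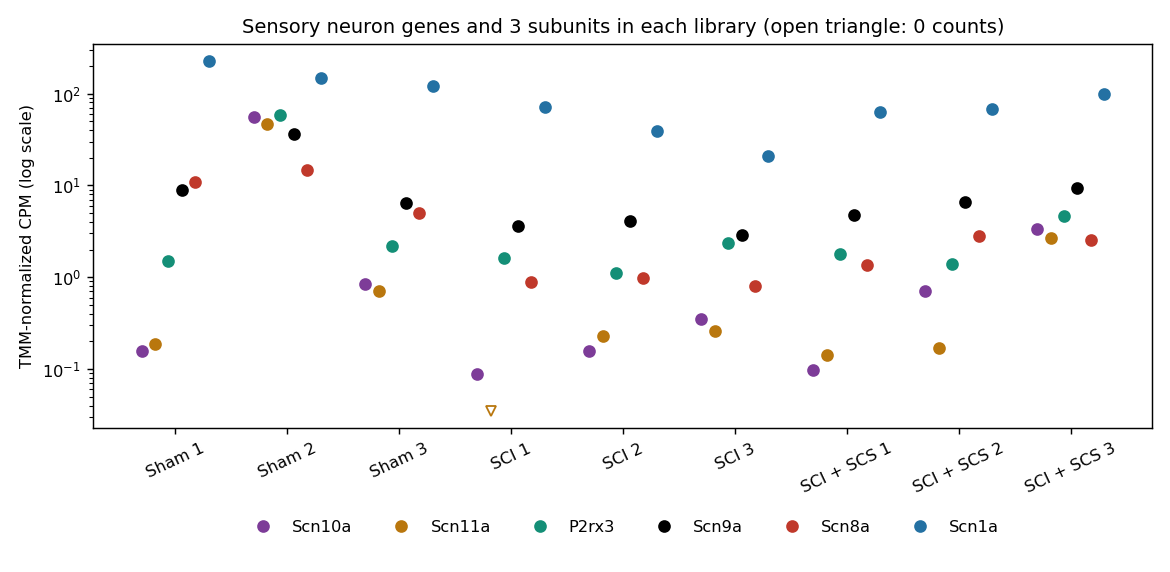
TMM-normalized CPM (log axis) of 3 sensory neuron genes (Scn10a, Scn11a, P2rx3) and 3 alpha subunits (Scn9a, Scn8a, Scn1a) in each of the 9 libraries; each point is 1 library, and the open triangle stands for 0 counts of Scn11a. Scn10a, Scn11a and P2rx3 reach 46.5 to 57.7 CPM in Sham replicate 2, where Scn9a is at 36.5 CPM, while Scn1a is highest in Sham replicate 1.

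Per unit of gene length, in the authors' unit FPKM, the beta subunits and Scn1a stood highest in Sham spinal cord. Mean levels were 31.1 ± 9.14 FPKM for Scn4b, 15.6 ± 4.76 FPKM for Scn1a and 14.6 ± 2.79 FPKM for Scn2b (SD, n = 3). They were followed by Scn3b at 5.61 ± 1.55 FPKM and Scn2a at 3.22 ± 1.18 FPKM. Scn9a (1.40 ± 1.38 FPKM), Scn8a (1.25 ± 0.610 FPKM) and Scn3a (0.768 ± 0.221 FPKM) were the lowest of the 8. Only Scn2b and Scn3b, of the neighbours in this order, had Sham ranges that did not overlap. In the SCI group the order was Scn4b, Scn2b, Scn1a, Scn3b, Scn2a, Scn9a, Scn3a and Scn8a. Scn8a was then the lowest in each SCI library, at a mean of 0.107 ± 0.0151 FPKM, below Scn3a at 0.240 ± 0.0221 FPKM. The SCI + SCS group had the same order as the SCI group, with Scn8a at 0.279 ± 0.0968 FPKM and Scn3a at 0.544 ± 0.1001 FPKM in ranges that did not overlap.

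The comparison of SCI with Sham asked how the subunits stood 35 days after a contusion. All 8 were lower in the SCI group. With edgeR's quasi-likelihood test and a threshold of 0.05 on the p adjusted by Benjamini-Hochberg over the whole table, 8 of 8 passed, and 25% of the 17822 genes tested passed in this direction. The 8 were chosen with earlier results of these data known, so their count is a description. Of 7 other genes of the family, 4 passed lower and 0 higher. Every SCI library was below every Sham library for each of the 8 genes, as it was for 31% of all genes tested. The log2 fold changes (log2FC) ran from -3.54 to -0.96, with a median of -1.79, and the median of all genes tested was 0.02. A log2FC under -1 with an adjusted p under 0.05 was reached by 7 of the 8, against 13.6% of all genes.

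Among the alpha subunits Scn8a fell the furthest. Its levels were 10.99, 14.7 and 5.03 CPM in Sham replicates 1, 2 and 3, and 0.876, 0.979 and 0.809 CPM in the SCI replicates. The SCI libraries lay close together and far below the lowest Sham library, at 8.68% of the Sham mean. The log2FC was -3.54 ± 0.42 (SE; 95% interval -4.55 to -2.53; edgeR adjusted p = 0.00189). Without Sham replicate 2 it was -3.20 ± 0.39 (edgeR adjusted p = 0.0104).

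Scn1a, the most abundant alpha subunit, was at 224, 149 and 120 CPM in the Sham replicates and at 71.6, 39.4 and 21.1 CPM in the SCI replicates. The SCI libraries were widely spread, and replicate 1 was the highest of them. Its log2FC was -1.92 ± 0.46 (95% interval -3.03 to -0.81; edgeR adjusted p = 0.0150). Scn2a was at 49.96, 28.7 and 25.03 CPM in Sham and at 10.5, 11.7 and 8.31 CPM in SCI, and its log2FC was -1.78 ± 0.29 (edgeR adjusted p = 0.00408). Scn3a was at 8.14, 7.34 and 4.51 CPM in Sham and at 2.49, 2.07 and 1.79 CPM in SCI, and its log2FC was -1.67 ± 0.28 (edgeR adjusted p = 0.00448). The intervals of these neighbours on chromosome 3 overlapped.

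Scn9a had the most uneven Sham values, at 8.85, 36.5 and 6.42 CPM, against 3.64, 4.09 and 2.90 CPM in SCI. The highest of these was the library with the sensory ganglion transcripts. Its log2FC was -2.30 ± 0.67 (95% interval -3.91 to -0.69; edgeR adjusted p = 0.0289). Without Sham replicate 2 the log2FC was -1.13 ± 0.26 (edgeR adjusted p = 0.0256), so the size of the difference rested on that library. Scn9a also no longer passed when an SCI replicate was left out, with edgeR adjusted p from 0.0740 to 0.0947 for the 3 replicates in turn. Scn1a did not pass without SCI replicate 2 (log2FC -1.85, edgeR adjusted p = 0.0545).

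Of the beta subunits, which assist the pore, Scn2b (disulfide-linked to alpha subunits) changed least. It was at 97.3, 80.9 and 64.3 CPM in Sham and at 38.7, 43.4 and 44.3 CPM in SCI. The SCI mean was 52.1% of the Sham mean, and the log2FC was -0.96 ± 0.17 (95% interval -1.36 to -0.56; edgeR adjusted p = 0.00473). Scn3b, which associates with alpha subunits without a disulfide bond, was at 33.1, 30.02 and 18.6 CPM in Sham and at 7.99, 10.6 and 7.46 CPM in SCI, with a log2FC of -1.67 ± 0.26 (edgeR adjusted p = 0.00338). Scn4b, known for its part in the resurgent current, was at 249, 220 and 133 CPM in Sham and at 92.1, 48.1 and 35.5 CPM in SCI. Its log2FC was -1.80 ± 0.40 (edgeR adjusted p = 0.0116). As for Scn1a, the highest SCI value of Scn4b was in replicate 1.

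**Figure D2:**
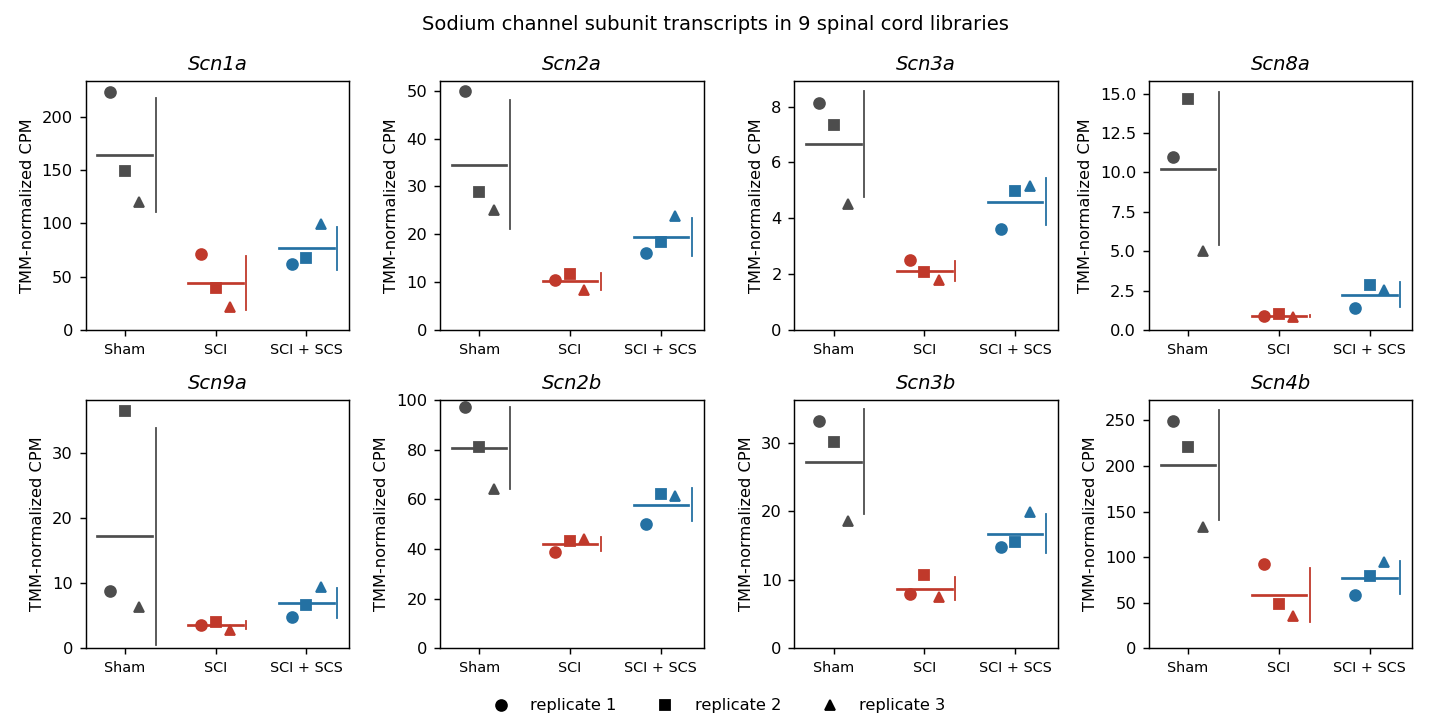
TMM-normalized CPM of the 8 subunit genes by group (Sham, SCI, SCI + SCS); each symbol is 1 library, the horizontal line is the mean and the vertical bar beside it is ± 1 SD (n = 3). All 3 SCI libraries lie under all 3 Sham libraries in each panel, Scn9a in Sham replicate 2 stands at 36.5 CPM, and the SCI + SCS libraries of Scn1a and Scn4b overlap with those of SCI.

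In whole tissue, fewer cells of a type and less RNA per cell cannot be told apart, and neuron markers fell too. Of 13 general neuron markers, 13 passed lower in SCI against Sham (edgeR), with a median log2FC of -2.16. Their summed level was 6258 to 13264 CPM in the Sham group, 1204 to 3399 CPM in the SCI group and 3179 to 5036 CPM in the SCI + SCS group, and no marker was at 0 in any library. Of the 7 oligodendrocyte markers, 6 passed lower, and their sum was 58410 to 81947 CPM in Sham and 17184 to 32727 CPM in SCI. Of 7 microglia and macrophage markers in the table, 4 passed higher, with sums of 212 to 341 CPM in Sham and 797 to 1057 CPM in SCI. Over all genes tested in SCI against Sham, 25% passed lower and 24.3% passed higher. The part of these cell types in the subunit differences was not tested, apart from the neuron markers as follows.

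When each library was scaled to the geometric mean of the 13 neuron markers in place of its total, 7 of the 8 subunits did not pass. On this scale the median log2FC of all genes tested was 2.48 for SCI against Sham, and all 8 subunits lay under it. Scn2b was the only subunit to pass, at a log2FC of 1.60 ± 0.53 (edgeR adjusted p = 0.00388), in a direction in which 86.8% of all genes passed (0.398% passed lower). Scn1a was at 0.42 ± 0.51, Scn2a at 0.74 ± 0.52, Scn3a at 0.83 ± 0.59, Scn3b at 0.87 ± 0.53, Scn4b at 0.60 ± 0.52 and Scn9a at 0.21 ± 0.56 (SE). Scn8a alone was below 0, at -0.98 ± 0.61 (95% interval -2.18 to 0.22; edgeR adjusted p = 0.121). On this scale the fit drew its spread largely from all genes together, so the SE of the 8 ran only from 0.51 to 0.61. The log2 ratios of Scn4b to the markers had an SD of 0.101 in Sham and 0.285 in SCI. A subunit that did not pass is therefore not shown to have changed as the markers did.

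Per library, the log2 ratio of Scn8a to the neuron markers was -5.17, -4.38 and -5.32 in the Sham replicates and -6.44, -5.91 and -5.41 in the SCI replicates. The groups did not overlap, although the highest SCI and the lowest Sham ratio were near each other. Ratios lower in every SCI library than in every Sham library were found for 0.634% of all genes. They were also found for 3 of the 13 neuron markers that make up the scale, Syt1 (log2FC -0.86 on this scale), Map2 (-1.23) and Nefl (-0.78), so Scn8a at -0.98 lay within the spread of the markers themselves. The ratio of Scn9a overlapped between the groups, and those of the other 6 subunits were higher in every SCI library, as for 88.5% of all genes. With a shorter neuron list, without Nefl, Nefm, Nefh, Tubb3, Stmn2 and Map2, Scn8a passed on this scale (log2FC -1.15, edgeR adjusted p = 0.0256). That list thus left out Map2 and Nefl, markers whose own ratios were lower in SCI.

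**Figure D3:**
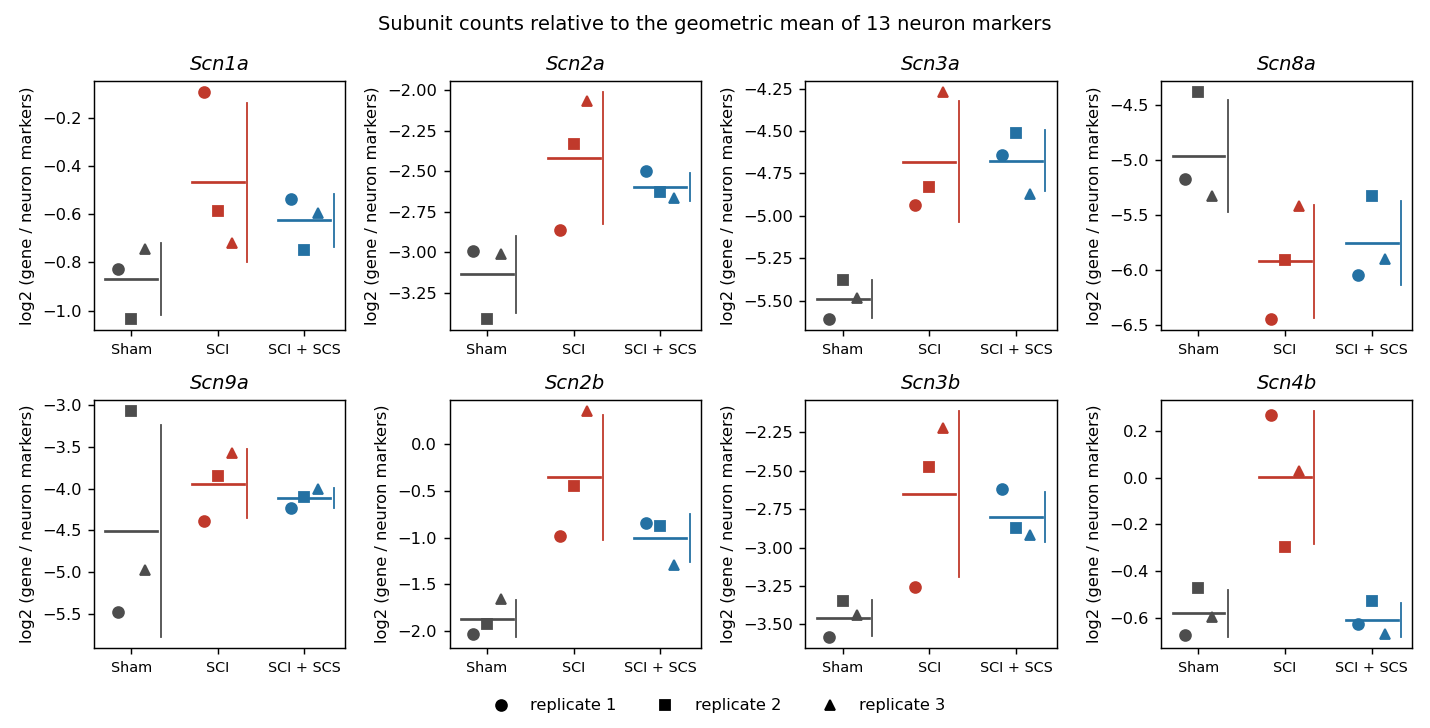
Log2 ratio of the count of each subunit gene to the geometric mean count of 13 neuron markers, per library; lines are means and vertical bars ± 1 SD (n = 3), and each panel has its own axis. Scn8a is the panel in which all SCI libraries (-6.44 to -5.41) lie below the Sham libraries (-5.32 to -4.38), and in Scn9a a single Sham library is above the rest.

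The make-up of the alpha subunit transcripts, as shares of their summed FPKM, kept Scn1a first in all 9 libraries. Its share was 70.4 ± 6.09% in Sham, 69.6 ± 10.05% in SCI and 69.7 ± 2.19% in SCI + SCS (SD, n = 3). The share of Scn8a was 4.61, 7.93 and 3.96% in the Sham replicates, 1.25, 2.13 and 2.93% in the SCI replicates and 1.96, 3.57 and 2.29% in the SCI + SCS replicates. All 3 SCI and all 3 SCI + SCS values were under the lowest Sham value. The difference was -3.40 percentage points for SCI against Sham (two-sided exact permutation test, p = 0.1, the smallest that 3 against 3 libraries allow; 0.343 after Benjamini-Hochberg adjustment over 24 tests of shares). Scn8a was the only alpha subunit whose shares did not overlap in that comparison. In SCI + SCS against Sham the shares of Scn2a and Scn3a did not overlap either, and were higher, at 17.4% against 14.4% and 5.13% against 3.45% (p = 0.1 for each in the same exact permutation test). Scn2a made up 14.4 ± 2.18% in Sham and 18.3 ± 6.06% in SCI, and Scn9a 6.23 ± 5.83% and 5.43 ± 1.82%, both with overlapping libraries. Scn3a made up 3.45 ± 0.283% in Sham and 4.60 ± 1.44% in SCI, also with overlapping libraries.

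Of the summed FPKM of the 3 beta subunits, Scn2b made up 28.9 ± 2.91% in Sham, 42.8 ± 11.5% in SCI and 40.6 ± 3.13% in SCI + SCS. Scn4b made up 60.2 ± 2.62%, 47.2 ± 13.4% and 46.0 ± 3.19% in the same order. Scn3b made up 10.9% in Sham, 9.995% in SCI and 13.4% in SCI + SCS. In SCI + SCS against Sham the shares of all 3 beta subunits did not overlap, with Scn2b and Scn3b higher and Scn4b lower (two-sided exact permutation test, p = 0.1 for each). The SCI shares of Scn2b and Scn4b were spread over the range of the other groups (two-sided exact permutation test for Scn2b in SCI against Sham, p = 0.2).

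**Figure D4:**
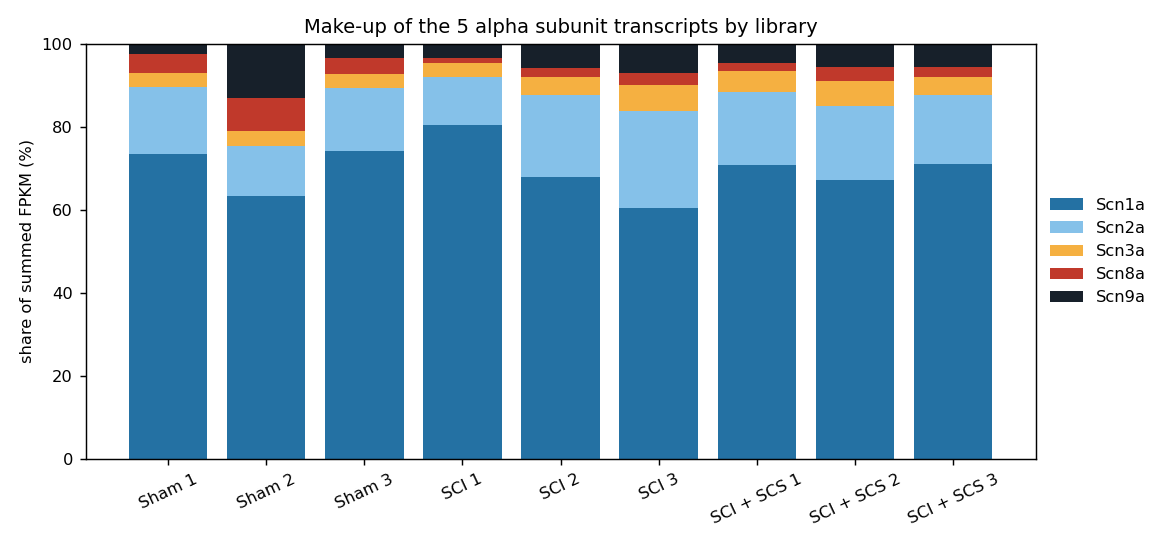
Share (%) of the summed FPKM of 5 alpha subunit genes in each library, stacked to 100%. Scn1a takes 60.6 to 80.4% in every library, and the band of Scn8a is 3.96 to 7.93% wide in Sham and 1.25 to 2.93% wide in SCI.

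The comparison of SCI + SCS with SCI asked whether the subunits differed after stimulation. All 8 log2FC were above 0, as were 49.3% of all those tested, and ran from 0.41 to 1.34 and a median of 0.94 (-0.01 for all genes tested). None passed the adjusted threshold in edgeR (0 of 8), and 0.00566% of the 17663 genes tested passed at all. At an unadjusted edgeR p under 0.05, 6 of 8 were higher, as were 13.3% of all genes. The libraries of 6 did not overlap with the SCI libraries, as for 15.7% of all genes. DESeq2 called the same 6 higher (Scn2a, Scn3a, Scn8a, Scn9a, Scn2b and Scn3b), and it called 8.19% of all genes higher.

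Scn8a had the largest log2FC, with 1.36, 2.84 and 2.52 CPM in the SCI + SCS replicates. Each was above the highest SCI value of 0.979 CPM and under the lowest Sham value of 5.03 CPM. Its log2FC was 1.34 ± 0.33 (95% interval 0.57 to 2.11; edgeR adjusted p = 0.0919; DESeq2 adjusted p = 0.00580). Scn3a was at 3.62, 4.98 and 5.16 CPM, with a log2FC of 1.12 ± 0.22 (edgeR adjusted p = 0.0793), and these values were near the lowest Sham library. Scn3b was at 14.7, 15.6 and 19.9 CPM and had the smallest adjusted p of the 8 (log2FC 0.95 ± 0.19, edgeR adjusted p = 0.0774; DESeq2 adjusted p = 0.000275).

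Scn2a was at 16.0, 18.4 and 23.8 CPM, with a log2FC of 0.94 ± 0.19 (edgeR adjusted p = 0.0814). Scn9a was at 4.78, 6.61 and 9.42 CPM, with a log2FC of 0.98 ± 0.28 (edgeR adjusted p = 0.109), and its highest value was in replicate 3, the library with more Scn10a and Scn11a. Scn2b was at 50.3, 62.1 and 61.5 CPM, with a log2FC of 0.47 ± 0.11 (edgeR adjusted p = 0.0892). Every library of these 3 genes was above every SCI library.

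Scn1a and Scn4b did not separate. Scn1a was at 62.3, 67.8 and 99.9 CPM, and SCI replicate 1 at 71.6 CPM lay within that range. The log2FC was 0.81 ± 0.42 (95% interval -0.18 to 1.80; edgeR adjusted p = 0.285). Scn4b was at 58.5, 79.0 and 94.9 CPM, against 92.1 CPM in SCI replicate 1, with a log2FC of 0.41 ± 0.35 (95% interval -0.42 to 1.25; edgeR adjusted p = 0.515). Without SCI replicate 1, the library with the most skeletal muscle counts, the log2FC was 1.34 ± 0.33 for Scn1a (edgeR adjusted p = 0.0781) and 0.88 ± 0.23 for Scn4b (edgeR adjusted p = 0.0864). Without SCI replicate 3, the other library with many of them, it was 0.47 ± 0.31 for Scn1a (edgeR adjusted p = 0.487) and 0.14 ± 0.32 for Scn4b (edgeR adjusted p = 0.844). Scn4b was also lower without SCI + SCS replicate 3, at 0.23 ± 0.40 (edgeR adjusted p = 0.817), so the size of both differences rested on single libraries. The SCI libraries also differed in neuron markers, whose geometric mean was 76.3, 59.2 and 34.7 CPM in replicates 1, 2 and 3. The part of muscle or neuron content in these shifts was not tested.

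The 13 neuron markers had log2FC above 0 as well (13 of 13, median 0.93), as did 49.3% of all genes. In edgeR 0 of them passed, with 6 higher at an unadjusted p under 0.05, as were 13.3% of all genes. DESeq2 called 5 of them higher, against 8.19% of all genes. Relative to the neuron markers, 0 of 8 subunits passed, against 59.8% of all genes lower and 0.102% higher, and the log2FC ran from -0.73 ± 0.47 for Scn2b to 0.15 ± 0.57 for Scn8a, with a median of -1.16 for all genes. Here too the fit drew its spread largely from all genes together. The ratio of Scn4b was lower in every SCI + SCS library than in every SCI library, as for 68.8% of all genes, and the ratios of the other 7 overlapped.

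**Figure D5:**
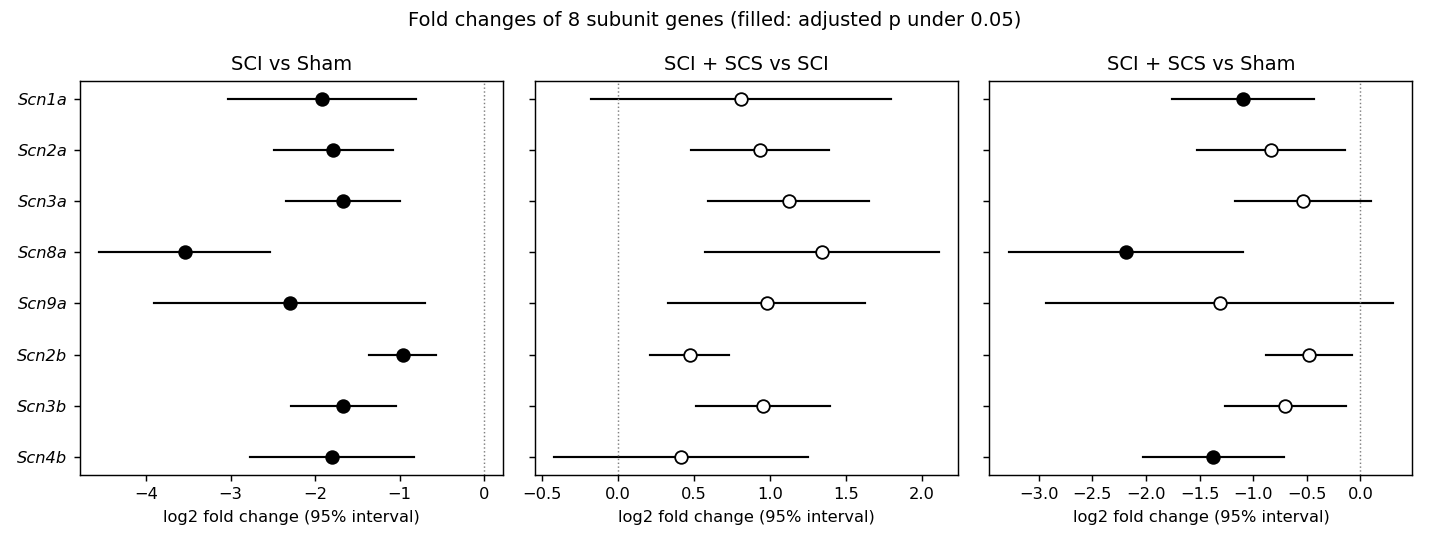
Log2 fold changes of the 8 subunit genes in the 3 comparisons with 95% intervals from edgeR; filled circles passed the adjusted threshold of 0.05 and each panel has its own axis. All 8 are filled and negative in SCI vs Sham (-3.54 to -0.96), all 8 are open and positive in SCI + SCS vs SCI (0.41 to 1.34), and Scn1a, Scn8a and Scn4b are filled and negative in SCI + SCS vs Sham.

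The third comparison set the stimulated rats against Sham and shares its libraries with the other 2. Scn1a, Scn8a and Scn4b passed lower (3 of 8, with 16.2% of the 17640 genes tested passing in this direction), and 6 of 8 had an unadjusted edgeR p under 0.05, as for 23.1% of all genes. Scn8a stood at 21.9% of the Sham mean (log2FC -2.19 ± 0.46, edgeR adjusted p = 0.0164), Scn4b at 38.6% (-1.37 ± 0.27, edgeR adjusted p = 0.0144) and Scn1a at 46.6% (-1.10 ± 0.28, edgeR adjusted p = 0.0273). Scn2a, Scn2b and Scn3b were at 56.0%, 71.7% and 61.5% of the Sham mean, with edgeR adjusted p of 0.0668, 0.0700 and 0.0621. Scn3a was at 68.8% and Scn9a at 40.2%, with overlapping libraries. The value of Scn9a rested on Sham replicate 2, since its log2FC of -1.31 ± 0.68 (edgeR adjusted p = 0.173) was -0.14 ± 0.33 without that library (edgeR adjusted p = 0.784). The libraries of 5 subunits did not overlap with Sham, against 26% of all genes. The count of 3 depended on single libraries. It was 0 without Sham replicate 2 or SCI + SCS replicate 1, 1 without SCI + SCS replicate 2 and 7 without Sham replicate 3, and DESeq2 gave 6, with 19.6% of all genes called lower.

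Other genes of the sodium channel family were also measured. Nalcn, the sodium leak channel, was at 57.9, 53.1 and 43.6 CPM in Sham and at 29.1, 33.4 and 39.1 CPM in SCI, with a log2FC of -0.62 ± 0.16 (edgeR adjusted p = 0.0168). It did not pass without Sham replicate 2 (-0.61 ± 0.19, edgeR adjusted p = 0.0551) or without SCI replicate 2 (-0.62, edgeR adjusted p = 0.0516). In SCI + SCS against Sham the log2FC of Nalcn was -0.51 ± 0.13 (edgeR adjusted p = 0.0294), and of the fits without 1 library it passed only in that without Sham replicate 3. In the other 5 the edgeR adjusted p was 0.0555 to 0.0939, including 0.0926 without Sham replicate 2 and 0.0555 without SCI + SCS replicate 3, and a fit that blocked on replicate number gave 0.0970. Scn10a (Nav1.8 of nociceptors) had a log2FC of -6.60 ± 2.23 in SCI against Sham (edgeR adjusted p = 0.0467) with overlapping libraries, since the Sham mean was set by replicate 2. Its log2FC without that library was -1.38 ± 0.90 (edgeR adjusted p = 0.270).

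Scn7a, a sodium channel gene that glia and non-neuronal cells express and that is not opened by voltage, went the other way. It was at 24.4, 133 and 98.9 CPM in Sham, 174, 278 and 214 CPM in SCI and 178, 153 and 176 CPM in SCI + SCS. Every SCI library was above every Sham library, but the log2FC of 1.36 ± 0.56 did not pass in edgeR (adjusted p = 0.0841), while DESeq2 called it (adjusted p = 0.0176). It passed in edgeR without Sham replicate 1, its lowest library (log2FC 0.92 ± 0.24, adjusted p = 0.0297). Scn7a lay next to the alpha cluster on chromosome 3 at 51335841-51438256. Its lowest value was in Sham replicate 1, which also had the lowest sums of fibroblast markers (356 CPM, against 1110 and 1788 CPM in the other Sham libraries) and of Schwann cell markers (4504 CPM, against 6781 and 7059 CPM). That library was the lowest Sham library for other non-neuronal lists too, such as astrocyte (6889 CPM), oligodendrocyte (58410 CPM) and microglia and macrophage markers (212 CPM). Schwann cell and fibroblast sums were 8834 to 12832 CPM and 3212 to 4828 CPM in SCI. In SCI + SCS they were 6845 to 14546 CPM and 1964 to 3358 CPM. The part of any of these cell types in the Scn7a values was not tested. Scn4a, the skeletal muscle alpha subunit, did not pass (-0.48 ± 0.55, edgeR adjusted p = 0.497), with its highest SCI count (184, against 66 and 45) in replicate 1, where muscle genes were highest. Scn11a was at 46.5 CPM in Sham replicate 2 and at or under 0.709 CPM in the other Sham and SCI libraries, and did not pass (edgeR adjusted p = 0.0511).

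Genes whose proteins anchor, bind or modify sodium channels were mostly lower as well. Of 14 partner genes in the table, 10 passed lower and 1 higher in SCI against Sham (25% and 24.3% of all genes), with a median log2FC of -1.55. Fgf11, an intracellular FGF homologous factor of the kind that binds the channels' tails, was at 1.81 CPM in SCI against 11.2 CPM in Sham (log2FC -2.65 ± 0.37, edgeR adjusted p = 0.00259). Kcnq3, a potassium channel subunit that shares the ankyrin anchor at the axon initial segment, was at 0.861 against 5.29 CPM (log2FC -2.63 ± 0.35, edgeR adjusted p = 0.00225). S100a10, which carries Nav1.8 to the membrane and is expressed in many cell types, was higher, at 324 against 107 CPM (log2FC 1.58 ± 0.21, edgeR adjusted p = 0.00227). The counts of 10 lower and 1 higher were the same without any 1 library. In SCI + SCS against SCI none of the 14 passed. At an unadjusted edgeR p under 0.05, 8 were higher and 1 lower (13.3% and 10.9% of all genes). DESeq2 called 9 of the 14, 1 of them lower, and it called 2541 of 17450 genes in either direction. In SCI + SCS against Sham 9 passed lower and 1 higher (16.2% of all genes in each direction). The number lower was 3 without Sham replicate 2, 4 without SCI + SCS replicate 3, 5 without SCI + SCS replicate 1 and 1 in a fit that blocked on replicate number. Relative to the neuron markers, 6 of the 14 passed in SCI against Sham and 0 of them were lower, where 86.8% of all genes passed higher. On that scale Fgf11 was at -0.24 ± 0.58 (edgeR adjusted p = 0.693), Kcnq3 at -0.37 ± 0.63 (edgeR adjusted p = 0.577) and S100a10 at 4.13 ± 0.61 (edgeR adjusted p = 1.84e-08).

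The genes with the most similar profile to each subunit over the 9 libraries, by Pearson's r of log2(CPM + 0.5) among 16279 named genes, are given as a description, since the libraries share the group differences. Scn1a was closest to Nefh, the heavy neurofilament gene (r = 0.997), and Bex2 (0.996), and Scn4b to Rbm11 (0.996) and Aqp11 (0.995). Scn8a was closest to Unc13a (0.996) and Erc2 (0.995), both genes of the presynaptic release site. Scn2a was closest to Mpped1 (0.994) and Plcb1 (0.994), Scn3a to Galnt9 (0.992) and Sgsm1 (0.991), and Scn3b to Vwa5b2 (0.997) and Ntsr1 (0.995). Scn2b was closest to Yars1 (0.995) and Pak6 (0.992). Scn9a was closest to Syt9 (0.978). Among the 8 subunits, the closest pair was Scn2a and Scn3b (r = 0.971), followed by Scn1a and Scn4b (0.964) and Scn3a and Scn3b (0.964), and the least alike were Scn2a and Scn9a (0.693). After the group means were removed, r was 0.934 for Scn1a and Scn4b and 0.335 for Scn1a and Scn8a (9 libraries).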

How the data were processed

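For 9 libraries, poly(A) RNA of whole spinal cord was captured on oligo(dT) beads and sequenced as read pairs. Per the submitters' processing notes, the authors used fastp 0.23.2, HISAT2 2.2.1 and mRatBN7.2. The counting program and its strand setting are not given in the sources used here. The authors deposited 2 tables by gene and library, the first of raw, unnormalized counts and the other of FPKM (counts per gene length and library total); 0 columns of per-sample values were left unmapped. Libraries were grouped by the labels.

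Counts were compared in R 4.3.3 with edgeR 4.0.16 (TMM, filterByExpr, quasi-likelihood test) over the 6 libraries of each comparison without covariates, with Benjamini-Hochberg adjustment over all genes tested and a threshold of 0.05. The standard error was the size of the log2FC divided by the square root of F. The study's methods name DESeq2, which was run as an alternative (1.42.0). In the neuron scaling, the library size was the geometric mean count of 13 neuron markers. FPKM shares were compared by exact permutation tests. Named genes were the 8 subunits, other family genes, from the partner list and each cell type list the 2 called genes with the largest |log2FC| in each direction in SCI against Sham, and the 2 genes closest to each subunit. P2rx3, Mrgprd, Prph, Plin1, Adipoq and Cidec were chosen after their values were seen. Some genes that the rule selects are not reported here. The members and lists were chosen with earlier results of these data known. Other alternatives were other filters, DESeq2's size factors, all libraries in one fit, a replicate block, limma 3.58.1 on log2(FPKM + 1) and log2(FPKM + 0.1), shares of CPM, a shorter neuron list and leaving out each library. A level of 3 counts was taken as the floor and covers counting error only, as PCR copies were not told apart from separate molecules. The tests were checked on simulated data with known changes, where DESeq2 recovered more of the changes than edgeR and made more false calls in each comparison.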

Additional observations from a re-analysis of the deposited data

How the results depend on the processing

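For SCI against Sham, all 8 subunits passed lower under DESeq2, other filters and scalings, the fit of all 9 libraries, summed rows and the replicate block, 7 passed with limma on FPKM at either pseudocount (Scn9a did not), and leaving out 1 library gave 6 to 8. No log2FC of a subunit changed sign in any of the 3 comparisons under any alternative, except relative to the neuron markers. For SCI + SCS against SCI the count was 0 of 8 under every alternative, leave-one-out fits included (0 to 0), except 6 with DESeq2. For SCI + SCS against Sham the count of 3 became 6 with DESeq2, 5 in the fit of all 9 libraries, 0 to 7 on leaving out 1 library, and 0 on leaving out both Sham replicate 2 and SCI + SCS replicate 3, an alternative chosen after seeing the data. Fits without 1 library hold fewer libraries, and the cause of the other changes was not tested.

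Whether the replicate numbers pair the libraries cannot be told from 3 libraries per group. Same-numbered libraries had correlations of their deviations from the group means of 0.24, -0.06 and 0.20 in SCI against Sham (mean 0.13). The means were -0.12 and -0.21 in the other comparisons. In SCI against Sham, 2 of the 3 SCI libraries correlated best with the Sham library of their own number. In each of the other comparisons 0 libraries did so. With the replicate number as a block, 8 of 8 subunits passed for SCI against Sham, 0 for SCI + SCS against SCI and 0 for SCI + SCS against Sham, where the count was 3 without it. Relative to the neuron markers, the block moved the count from 1 to 6 for SCI against Sham.

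Relative to the neuron markers, the shorter neuron list (without Nefl, Nefm, Nefh, Tubb3, Stmn2 and Map2) gave 2 calls for SCI against Sham, and leaving out 1 library gave 1 to 1. For SCI + SCS against SCI these counts were 0 throughout (0 to 0). Values near 0 changed sign. Scn9a ran from -0.18 to 1.30 for SCI against Sham on leaving out 1 library, with -0.09 without Sham replicate 3. For SCI + SCS against SCI, Scn3a was at 0.012 with the replicate block and at 0.022 with the shorter list. On leaving out 1 library it ran from -0.14 to 0.22 (0.081 without SCI + SCS replicate 3), Scn1a from -0.30 to 0.030, Scn8a from -0.10 to 0.44 (-0.070 without SCI replicate 1) and Scn3b from -0.45 to 0.018.

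For the alpha subunit shares, the number of subunits with shares that did not overlap was 1 to 3 for SCI against Sham (3 without Sham replicate 2 and 3 without SCI replicate 1) and 0 to 2 for SCI + SCS against SCI (2 without SCI replicate 1 and 1 without SCI replicate 3). The difference in the Scn8a share was -4.17 to -2.18 and 0.02 to 0.91 percentage points in the same fits. Depth limits the lowest gene, Scn8a, little, since its SCI values lay well above the level of 3 counts, and 3 libraries per group limit every test.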

Other observations

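The cell type lists read beside the subunits moved as follows in SCI against Sham (edgeR, log2FC ± SE, calls at an adjusted p under 0.05 over all genes). Of all genes tested in this comparison, 25% passed lower and 24.3% passed higher. All 13 neuron markers passed lower, led by Map2 (-3.74 ± 0.40) and Syt1 (-3.51 ± 0.60). The number was 11 without Sham replicate 1, Sham replicate 2 or SCI replicate 2, and 12 without SCI replicate 3. Of 7 oligodendrocyte markers 6 passed lower, with Mog at -1.50 ± 0.16, and of 7 astrocyte markers 2 passed lower, the glutamate transporters Slc1a2 (-1.61 ± 0.21) and Slc1a3 (-0.79 ± 0.10). Of 5 oligodendrocyte precursor markers, Gpr17 (-2.23 ± 0.25) and Olig2 (-1.04 ± 0.26) passed lower and Pdgfra (1.02 ± 0.30) higher. Of 7 microglia and macrophage markers 4 passed higher, led by Cd68 (5.81 ± 0.57) and Aif1 (2.54 ± 0.33). All 5 fibroblast markers passed higher, led by Col3a1 (2.41 ± 0.66) and Col1a2 (1.89 ± 0.59). So did 3 of 6 Schwann cell markers, Ncmap (1.16 ± 0.37) and Pmp22 (0.84 ± 0.23) among them. Of the 4 adipocyte markers tested 3 passed higher, led by Fabp4 (6.40 ± 0.38) and Cfd (3.86 ± 0.49). Plin1 did not pass (-0.33 ± 0.50, edgeR adjusted p = 0.604), and Adipoq and Cidec were too low in counts to be tested. Of 5 endothelial markers Flt1 passed lower (-1.07 ± 0.19) and Cdh5 higher (1.28 ± 0.37). These endothelial counts and the count of lower astrocyte markers were near the shares of all genes. Of 8 skeletal muscle genes 6 passed higher, led by Mb (8.13 ± 2.57) and Ttn (6.27 ± 1.94), with overlapping libraries. Of 7 sensory ganglion genes tested 4 passed lower, led by Scn10a and Isl1 (-6.22 ± 1.28). In SCI + SCS against SCI no gene of these lists passed in edgeR, where 1 gene of 17663 passed in all.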
